A study of Mus musculus with 18 samples.

Results

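The apolipoprotein L family was represented by 6 genes, *Apol6*, *Apol7a*, *Apol9a*, *Apol9b*, *Apol10a* and *Apol10b*, taken by gene symbol from a table of read counts that held 13 *Apol* genes among 36757 genes. They were selected on measured values of these libraries, the differences between RNF138-/- and RNF138 fl/fl in CAC, and those values are given as a description with no test. RNA sequencing covered 18 libraries of C57BL/6 mice, 3 labelled wild type (RNF138 fl/fl) and 3 labelled RNF138-/- in each of a chronic colitis model, a colitis-associated cancer (CAC) model and organoids. RNF138 is a Ub-E3 ligase, and the study asked what its loss does to the colon in these settings. Colitis mice entered at 6 to 8 weeks of age and drank 2% dextran sulfate sodium (DSS) for 7 days followed by 14 days of water in repeated cycles, and were killed 4 weeks after the last one. CAC mice of the same starting age were injected i.p. with azoxymethane (AOM) at 10 mg/kg before repeated cycles of 2% DSS for 7 days and water for 14 days. Organoids were grown in matrigel from tumor-containing fragments of CAC mice, so their donors had received AOM and DSS as well. How, and in which cells, *Rnf138* was deleted is not given in the sources used here, nor is the number of mice behind each library.

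Apolipoprotein L proteins are lipid-binding proteins that mostly stay inside cells, unlike the plasma apolipoproteins that carry cholesterol. The mouse genes sit side by side in a cluster of close copies, and several of them are induced by interferons and microbial products. *Apol9a* and *Apol9b* encode interferon-induced antiviral proteins that bind phosphatidylethanolamine, and *Apol6* is the mouse relative of a human protein that can trigger cell death.

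All 6 genes are on chromosome 15 of the GRCm38 (mm10) build, and all are annotated as protein coding. From one end to the other they are *Apol6* (chr15:77044729-77057106, + strand), *Apol7a* (chr15:77388219-77399110, - strand), *Apol9a* (chr15:77403789-77411135, - strand), *Apol10a* (chr15:77477047-77491069, + strand), *Apol10b* (chr15:77583819-77596125, - strand) and *Apol9b* (chr15:77729039-77736382, + strand). Because the copies resemble each other, exonic sequence was compared before any value was read. *Apol9a* and *Apol9b* shared 98.5% of the 930 bases of their longest coding sequences, with 14 differences and a longest identical run of 446 bases. The other 14 pairs of the 6 genes were 51.9% to 75.4% identical over their aligned coding bases. A window of 150 bases, the stated read length, that also occurred in the other gene made up 22.5% of the exonic windows of *Apol9b* and 7.10% of those of *Apol9a*, and none for *Apol6*, *Apol7a*, *Apol10a* and *Apol10b*. Reads from *Apol9a* and *Apol9b* could therefore be split or dropped by the counting, and their single values are uncertain while their sum does not change when reads pass between them. The stretch that separates both copies best is printed here, coding bases 460 to 579, with the 7 differing bases in capitals.
*Apol9a*: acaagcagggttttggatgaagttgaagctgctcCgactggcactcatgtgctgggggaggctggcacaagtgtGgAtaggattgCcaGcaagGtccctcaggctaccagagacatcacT
*Apol9b*: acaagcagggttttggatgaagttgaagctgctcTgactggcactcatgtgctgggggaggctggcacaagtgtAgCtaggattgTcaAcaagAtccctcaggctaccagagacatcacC

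Promoter sequences of RefSeq (GRCm38.p6) were found for 5 of the 6 genes, all but *Apol6*. They are shown because the genes were picked on the same CAC difference and several are known to respond to interferon. A pair of motifs was searched on both strands of the 250 bases before each start, the ISRE core of GAAA, any 2 bases and GAAA, bound by the ISGF3 complex and by IRF factors, and the GAS element TTCNNNGAA, bound by STAT dimers. Over 32851 promoters the first occurred in 2.98% and the second in 7.02%. *Apol9a* and *Apol9b* each held a pair of overlapping ISRE matches, *Apol10a* held 1 ISRE and 1 GAS match, and the windows of *Apol7a* and *Apol10b* held neither motif. A match is a description of letters and not evidence of binding. The *Apol10a* window (chr15:77476797-77477046, + strand) carries its matches in capitals, GAS first and ISRE on the reverse strand second. The 150 bases of *Apol9a* (chr15:77411124-77411273, - strand) and *Apol9b* (chr15:77728901-77729050, + strand) end with the overlapping ISRE matches, of which the last 12 bases lie inside the annotated gene, and had 0 differences.
*Apol10a*: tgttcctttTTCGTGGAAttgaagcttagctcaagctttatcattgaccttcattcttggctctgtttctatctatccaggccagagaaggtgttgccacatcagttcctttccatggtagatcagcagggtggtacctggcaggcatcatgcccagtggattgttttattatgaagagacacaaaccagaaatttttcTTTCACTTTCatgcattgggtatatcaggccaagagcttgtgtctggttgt
*Apol9a*: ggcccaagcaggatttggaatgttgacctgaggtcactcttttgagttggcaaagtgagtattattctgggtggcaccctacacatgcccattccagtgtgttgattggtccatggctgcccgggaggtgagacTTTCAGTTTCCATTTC
*Apol9b*: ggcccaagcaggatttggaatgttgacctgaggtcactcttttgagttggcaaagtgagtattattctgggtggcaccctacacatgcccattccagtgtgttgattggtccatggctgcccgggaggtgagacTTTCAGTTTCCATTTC

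Total counts lay between 11514716 and 24390082 per library, and 3 counts, the level under which a gene was treated as not detected, were worth 0.121 to 0.284 CPM, the read count scaled to library size with trimmed mean of M-values (TMM) normalization. *Rnf138* itself was not lower in the libraries labelled RNF138-/-. Its level was 18.8 ± 0.757 CPM against 19.6 ± 4.95 in RNF138 fl/fl colitis, 43.5 ± 3.40 against 25.4 ± 3.42 in CAC and 46.9 ± 3.81 against 48.9 ± 9.78 in organoids (mean ± SD, n = 3). In CAC the difference was 0.72 in log2 units (SE 0.14, adjusted p = 0.0426 by edgeR), higher in the libraries labelled RNF138-/-, so the targeted gene goes against the label there. Which exons were removed is not given in the sources used here, a count over the whole gene may not see the deletion, and whether a label is exchanged cannot be read from these counts. RNF138-/- is therefore used throughout as the label of a library, and each direction between genotypes is a direction between labels. One CAC RNF138 fl/fl library, replicate 3, stood apart, with 24213 summed CPM over 16 differentiated colonocyte genes against 6417 in replicate 1 and 4723 in replicate 2, and the main results that rest on it are also given without it. The 3 RNF138 fl/fl organoid libraries had *Ddx3y*, a Y-linked gene, at 0 counts and *Xist* at 390 to 464 CPM, while all others expressed *Ddx3y*, so sex and genotype cannot be told apart in organoids, nor sex and model between RNF138 fl/fl organoids and RNF138 fl/fl CAC tissue. P-values measure the spread between these libraries only, since the labels do not say that they came from separate mice.

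In RNF138 fl/fl colitis, *Apol10a* was the most abundant of the 6 genes, and it was among the top genes of the tissue. Levels between genes were compared as CPM per kilobase of merged exon length. *Apol10a* stood at 64.0 ± 9.73 CPM per kb, *Apol9b* at 12.1 ± 4.13, *Apol7a* at 9.25 ± 1.33, *Apol9a* at 5.61 ± 1.64, *Apol6* at 3.17 ± 0.103 and *Apol10b* at 1.72 ± 0.221 (mean ± SD, n = 3). The ranges of the neighbours *Apol9b* and *Apol7a* overlapped. The place of *Apol9a* depends on the length it is divided by, since with the longest protein-coding transcript, a choice made after seeing the data, it stood at 21.8 CPM per kb. Per kb, *Apol10a* was at percentile 94.8 to 98.5 of the genes with enough counts for a test over the 18 libraries, in the 6 colitis libraries.

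In colitis, all 6 genes had higher mean CPM in the libraries labelled RNF138-/-, and none passed the test. For *Apol10a*, CPM were 199, 163 and 221 in RNF138 fl/fl replicates 1 to 3 and 276, 292 and 457 in RNF138-/- replicates 1 to 3. Every RNF138-/- library lay above every RNF138 fl/fl library. The fitted log2 fold change was 0.82 (SE 0.25, adjusted p = 0.303 by edgeR).
*Apol7a* read 27.3, 24.4 and 32.4 CPM in RNF138 fl/fl and 67.6, 52.2 and 57.1 CPM in RNF138-/-, again without overlap, which came to 1.07 on the log2 scale (SE 0.19, adjusted p = 0.127 by edgeR). *Apol6* read 14.0, 14.0 and 14.8 CPM against 31.1, 19.2 and 36.3 CPM, without overlap, which came to 1.02 (SE 0.26, adjusted p = 0.215 by edgeR). *Apol10b*, low in both groups, read 3.40, 4.32 and 4.27 CPM against 4.72, 4.73 and 5.82 CPM.
*Apol9a* and *Apol9b* behaved differently, because RNF138-/- replicate 3 lay among the RNF138 fl/fl libraries. *Apol9a* was at 42.4, 23.1 and 34.7 CPM in RNF138 fl/fl and 131, 67.1 and 24.7 CPM in RNF138-/-. *Apol9b* was at 29.5, 14.5 and 21.9 CPM in RNF138 fl/fl and 96.3, 44.5 and 20.9 CPM in RNF138-/-. So the library with the most *Apol10a* among the 3 RNF138-/- colitis libraries had the least *Apol9a* and *Apol9b*. Summed as 1 feature, *Apol9a* and *Apol9b* gave a log2 fold change of 1.20 (adjusted p = 0.476 by edgeR). With 1 library left out, *Apol9a* ranged from 0.46 to 1.55 and *Apol9b* from 0.57 to 1.67. The lowest values came without RNF138-/- replicate 1 and the highest without RNF138-/- replicate 3.

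A gene was called where its adjusted p was under 0.05 and it changed at least 2-fold, and in colitis 0.0902% of the genes tested were called between genotypes, in either direction. Of the 6 *Apol* genes 0 were called, while 4 had an unadjusted p under 0.05, beside 6.08% of all genes tested that had one with a positive change. DESeq2 called 1 of the 6, *Apol7a*, beside 199 of 32162 genes that it called higher and 138 lower. The median log2 fold change of the 6 genes was 1.05 against 0.02 over all genes tested. In 4 of the 6 the genotypes did not overlap, beside 8.86% of all genes tested that lay higher in RNF138-/- without overlap.
Some marker lists differed between the genotypes as well. Summed CPM of 9 T cell genes were 48.6 to 61.1 in RNF138-/- and 28.2 to 29.7 in RNF138 fl/fl colitis, all 9 with positive log2 fold changes and 6 with an unadjusted p under 0.05. Those of 9 dendritic cell genes were 39.1 to 41.8 and 30.7 to 33.5, with 5 of the 8 tested positive (median 0.18), and those of the 16 colonocyte genes 10643 to 14171 and 8133 to 10416, with 12 positive and 4 negative (median 0.25). Of 8 B and plasma cell genes 7 had positive log2 fold changes (median 0.70) and 4 an unadjusted p under 0.05, although their summed CPM overlapped at 1563 to 2709 and 1791 to 2691. None of these lists had a gene called higher, 1 colonocyte gene was called lower, no gene of them was at 0 over a colitis group, and their part in the *Apol* values was not tested.

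In CAC, the comparison known when the genes were picked, all 6 were lower in every RNF138-/- library than in any RNF138 fl/fl library, beside 20.8% of all genes tested, and nothing is read from that count. *Apol10a* was at 17.9, 44.1 and 675 CPM in RNF138 fl/fl replicates 1 to 3, and at 0.372, 0.121 and 0.181 CPM in RNF138-/-, which is 7, 3 and 4 counts. The pooled counts, 8368 against 14 before allowing for library size, made a ratio of 816 (exact Poisson 95% interval 486 to 1493, counting error only). Replicate 3 held 7136 of the 8368 counts, and without it 1232 counts gave a ratio of 154 (interval 91.4 to 282). The RNF138 fl/fl libraries themselves spread 37.6-fold.
*Apol9a* was at 19.5, 13.9 and 145 CPM in RNF138 fl/fl and 2.39, 1.46 and 1.54 CPM in RNF138-/-. *Apol9b* was at 12.8, 8.22 and 94.9 CPM against 2.02, 1.29 and 1.49 CPM. *Apol6* was at 6.88, 6.57 and 55.5 CPM against 0.690, 0.849 and 2.31 CPM. For these 3 genes the lowest RNF138 fl/fl library exceeded the highest RNF138-/- library 5.82-fold, 4.07-fold and 2.85-fold, in that order.
*Apol7a* was at 17.9, 10.99 and 132 CPM against 7.43, 6.15 and 9.58 CPM. *Apol10b* was at 1.66, 2.21 and 5.39 CPM against 0.425, 0.809 and 1.63 CPM. In both of these genes the groups came close to touching, with ratios of 1.15 and 1.02 between the nearest libraries.

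The fitted log2 fold changes in CAC were -10.18 (SE 1.92) for *Apol10a*, -5.12 (SE 1.06) for *Apol9a*, -4.66 (SE 1.05) for *Apol9b*, -4.22 (SE 1.07) for *Apol6*, -2.86 (SE 0.96) for *Apol7a* and -1.72 (SE 0.64) for *Apol10b*. They are sizes only, since a test on the contrast that picked the genes would carry no information. Replicate 3 of RNF138 fl/fl exceeded the mean of the other two libraries 21.7-fold for *Apol10a*, 8.25-fold to 9.15-fold for *Apol6*, *Apol7a*, *Apol9a* and *Apol9b*, and 2.79-fold for *Apol10b*. Without it the log2 fold changes were -7.16 for *Apol10a*, -3.25 for *Apol9a*, -2.74 for *Apol9b*, -2.41 for *Apol6*, -1.04 for *Apol10b* and -0.93 for *Apol7a*.
Some marker lists were lower in the same RNF138-/- libraries, and others overlapped between the genotypes. Summed CPM of the 16 colonocyte genes were 433 to 1000 in RNF138-/- CAC and 4723 to 24213 in RNF138 fl/fl CAC, those of 6 smooth muscle genes 113 to 242 and 2505 to 8379, those of 8 goblet cell genes 2167 to 3441 and 14075 to 43425, and those of 8 B and plasma cell genes 129 to 224 and 1548 to 2297. No gene of these 4 lists was at 0 over a group of tissue libraries, and their part in the *Apol* result was not tested. In bulk tissue, fewer cells of a type and less RNA per cell cannot be told apart. Summed CPM of 10 general epithelial genes were 7830 to 9649 in RNF138-/- CAC and 10475 to 19463 in RNF138 fl/fl CAC, without overlap, all 10 with negative log2 fold changes (median -0.92) and 2 called lower. Those of 10 myeloid genes overlapped, at 779 to 1073 and 405 to 913, with 8 positive and 2 negative log2 fold changes. The sums of fibroblast, endothelial, T cell and dendritic cell genes overlapped as well.

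**Figure D1:**
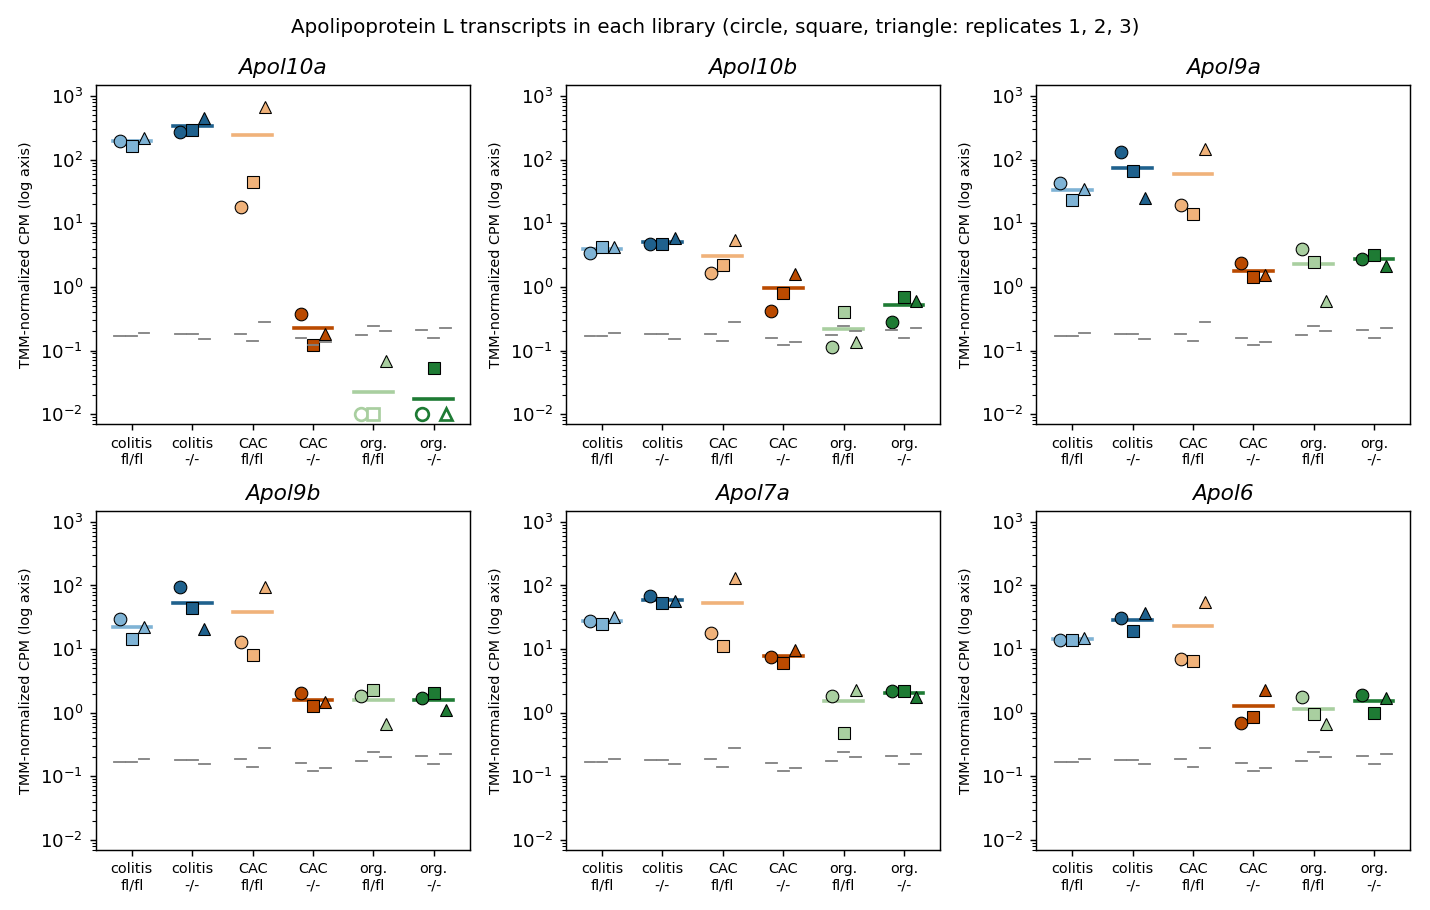
TMM-normalized CPM on a log axis of the 6 genes in each library, by model and labelled genotype, with a thick bar for the group mean (n = 3), grey ticks for the level of 3 counts in that library, and open symbols at the bottom for libraries at 0 counts. *Apol10a* is high in all 6 colitis libraries (163 to 457 CPM), spread over 17.9 to 675 CPM in RNF138 fl/fl CAC, and at or below 0.372 CPM in RNF138-/- CAC and in organoids.

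Between the models, CAC was set against colitis within each genotype label. These comparisons share their CAC libraries with the contrast known when the genes were picked. Among RNF138-/- libraries, a gene picked for being low in CAC is set against colitis with the libraries where it was low. Calls and p-values below are for genes chosen in that knowledge, and are descriptions and not independent results. Among RNF138-/- libraries, all 6 genes were lower in CAC than in colitis, with no overlap, beside 27.8% of all genes tested. All 6 were called, beside 19.3% of all genes tested called lower and 16.1% called higher. That balance turned with library totals in place of TMM, which gave 2560 genes called lower and 4359 higher against 3475 and 2895, with a shift of 0.35 in the median log2 fold change of all genes, and all 6 *Apol* genes were called lower there too. *Apol10a* dropped from 276 to 457 CPM in colitis to at most 0.372 CPM in CAC, and the pooled count ratio was 1631 (exact Poisson 95% interval 972 to 2984, counting error only). Its fitted log2 fold change was -10.63 (SE 0.46), a value that depends on the prior count, and with 7, 3 and 4 counts in CAC it entered the fit only through colitis, where it is high.
*Apol9a* fell by 5.41 in log2 units (SE 0.63, adjusted p = 0.000588 by edgeR) and *Apol9b* fell by 5.11 (SE 0.59, adjusted p = 0.000560), and their sum fell by 5.28 (adjusted p = 0.000544). *Apol6* fell by 4.53 (SE 0.51, adjusted p = 0.000516 by edgeR) and *Apol7a* fell by 2.97 (SE 0.23, adjusted p = 0.000141). *Apol10b* had a fitted change of -2.45 (SE 0.48) and also entered the fit only through colitis, so its call and that of *Apol10a* carry no weight. The calls of the other genes rest on the CAC libraries known when the genes were picked. The median over the 6 genes was -4.82 against 0.02 over all genes tested. In the same libraries the colonocyte list went from 10643 to 14171 summed CPM in colitis to 433 to 1000 in CAC, and 15 of its 16 genes were called lower. Smooth muscle (6 of 6 genes called lower, median -5.93), B and plasma cell (8 of 8, median -3.66) and goblet cell lists (7 of 8, median -2.998) were lower as well. Medians were nearer 0 for dendritic cell (-1.19), T cell (-1.14), general epithelial (-0.69) and endothelial lists (-0.59). They were positive for the myeloid (0.36) and fibroblast lists (0.35). The part of all these lists in the *Apol* result was not tested.

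Among RNF138 fl/fl libraries, CAC and colitis overlapped for each of the 6 genes, while 34.4% of all genes tested did not overlap in one direction or the other. Of the 6 genes 0 were called, beside 9.84% of all genes tested called in either direction, and 0 had an unadjusted p under 0.05. DESeq2 also called 0 of the 6, beside 1773 of 32259 genes that it called higher and 816 lower. The log2 fold changes were 0.94 (SE 0.82) for *Apol7a*, 0.84 (SE 0.81) for *Apol9a*, 0.81 (SE 0.83) for *Apol9b*, 0.69 (SE 0.77) for *Apol6*, 0.35 (SE 1.10) for *Apol10a* and -0.38 (SE 0.45) for *Apol10b*. The sign rested on CAC replicate 3. For *Apol10a*, CAC replicates 1 and 2 were at 17.9 and 44.1 CPM, under the lowest colitis library at 163 CPM, and replicate 3 at 675 CPM was above the highest at 221 CPM. Without replicate 3 the log2 fold changes were -2.63 for *Apol10a*, -1.07 for *Apol6*, -1.06 for *Apol9b*, -1.02 for *Apol10b*, -0.99 for *Apol9a* and -0.95 for *Apol7a*. In that fit 3 genes were called lower, *Apol10a*, *Apol6* and *Apol10b*, beside 1271 of 17928 genes tested called lower and 2000 called higher. No direction is drawn for these genes between CAC and colitis in RNF138 fl/fl.

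The genotype difference in CAC minus that in colitis contains the contrast known beforehand and is given as sizes with no test. The log2 differences were -10.92 (SE 1.49) for *Apol10a*, -6.20 (SE 1.13) for *Apol9a*, -5.88 (SE 1.08) for *Apol9b*, -5.16 (SE 0.97) for *Apol6*, -3.86 (SE 0.91) for *Apol7a* and -2.002 (SE 0.68) for *Apol10b*. Without CAC RNF138 fl/fl replicate 3 they ran from -7.95 for *Apol10a* to -1.36 for *Apol10b*.

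**Figure D2:**
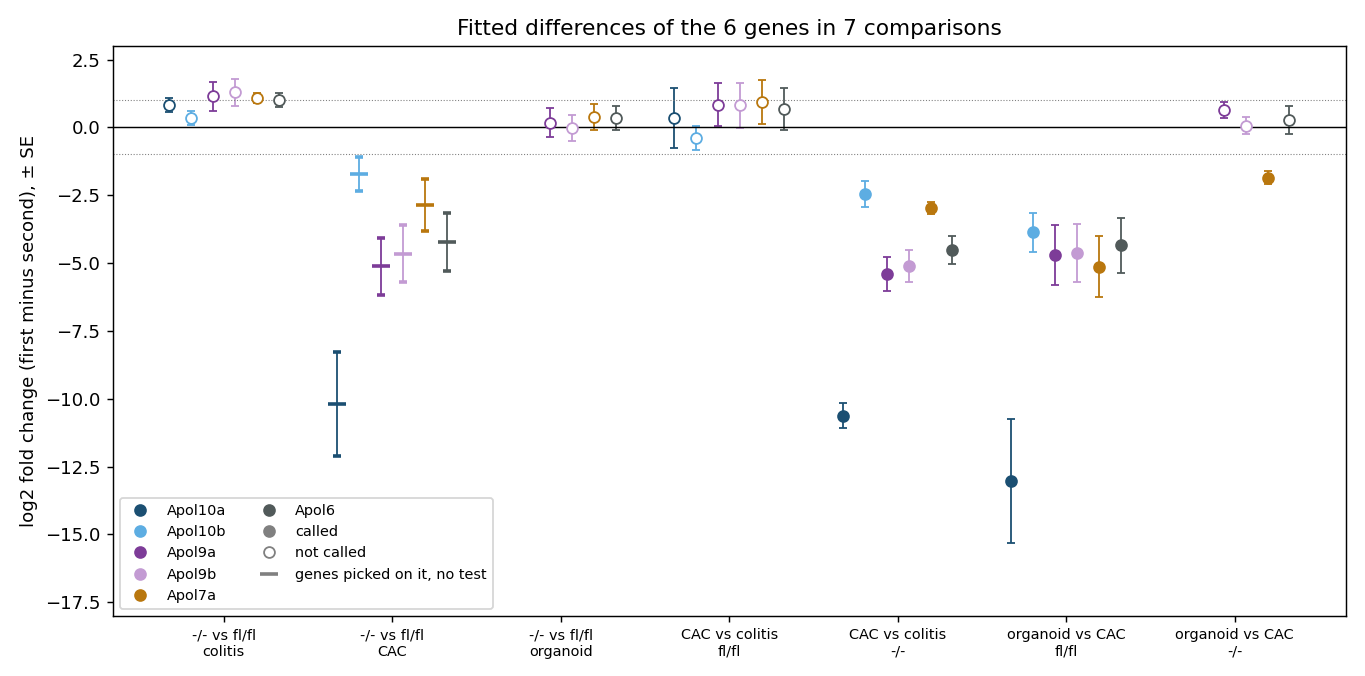
Fitted log2 fold changes of the 6 genes (points) with their standard errors (bars) in the 7 comparisons of 2 groups, filled where called and open where not, with dashes for the CAC genotype contrast that picked the genes and dotted lines at a fold change of 2. All 6 points are filled for CAC against colitis in RNF138-/- and for organoids against CAC in RNF138 fl/fl, while all 6 are positive and open between genotypes in colitis. Comparisons with CAC share libraries with the contrast that picked the genes, so their filled points are descriptions. *Apol10a* and *Apol10b* could not be tested in 2 organoid comparisons, where their counts were too low.

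In organoids the 6 genes were at low levels. *Apol10a* had 0, 0 and 1 counts in RNF138 fl/fl and 0, 1 and 0 counts in RNF138-/-, so it was not detectable at this depth in either. The other members lay between 0.115 and 3.92 CPM in all 6 organoid libraries. *Apol9a* was at 3.92, 2.47 and 0.607 CPM in RNF138 fl/fl and 2.74, 3.23 and 2.16 CPM in RNF138-/-, and *Apol9b* was at 1.84, 2.31 and 0.674 CPM against 1.68, 2.01 and 1.12 CPM. *Apol7a* was at 1.84, 0.478 and 2.29 CPM against 2.17, 2.22 and 1.79 CPM. *Apol6* was at 1.79, 0.957 and 0.674 CPM against 1.89, 1.01 and 1.72 CPM. *Apol10b* was at 0.115, 0.399 and 0.135 CPM against 0.281, 0.688 and 0.597 CPM, 9 and 25 counts in all. Genotypes overlapped in all of them, while 53.3% of all genes tested did not overlap in one direction or the other. Of the 4 genes with enough counts 0 were called, beside 15.0% of all genes tested called in either direction, with 0 at an unadjusted p under 0.05. DESeq2 called 0 of the 6 genes, beside 1349 of 28671 genes that it called higher and 1029 lower. The log2 fold changes were 0.37 (SE 0.47) for *Apol7a*, 0.36 (SE 0.44) for *Apol6*, 0.17 (SE 0.54) for *Apol9a* and -0.02 (SE 0.47) for *Apol9b*.

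Organoids were also set against CAC tissue, whose libraries again belong to the contrast known when the genes were picked, so a gene picked for being high in RNF138 fl/fl CAC is set against the libraries where it was high, and calls and p-values are descriptions and not independent results. Set against the RNF138 fl/fl CAC tissue, RNF138 fl/fl organoids, from the libraries without *Ddx3y*, were lower in all 6 genes with no overlap, beside 34.4% of all genes tested. All 6 were called, beside 24.7% of all genes tested called lower and 16.9% called higher. For *Apol10a*, 1 count in organoids stood against 8368 in CAC, a pooled ratio of 7775 whose exact Poisson 95% interval runs from 1395 to 307141 and covers counting error only. Without CAC replicate 3 the ratio was 1467 (interval 263 to 57987). Its fitted value of -13.02 in log2 units (SE 2.29) depends on the prior count, and the gene had enough counts for the fit only through CAC. The same held for the other 5 genes, each of which was under the filter on low counts in at least 1 of these organoid libraries, so the calls carry no weight and the sizes are given without p-values. In log2 units the fitted changes were -5.14 for *Apol7a* (SE 1.13), -4.70 for *Apol9a* (SE 1.12), -4.62 for *Apol9b* (SE 1.08), -4.35 for *Apol6* (SE 1.01) and -3.87 for *Apol10b* (SE 0.70). The median over the 6 genes was -4.66, also with *Apol10a* set to its ratio against the level of 3 counts. Without CAC RNF138 fl/fl replicate 3 the log2 fold changes ran from -10.04 for *Apol10a* to -2.56 for *Apol6*.
Against RNF138-/- CAC tissue, RNF138-/- organoids were lower in 1 of the 4 genes tested, beside 26.5% of all genes tested called lower and 19.8% called higher. With library totals in place of TMM 7341 genes were called lower and 2095 higher, against 4565 and 3415, with a shift of -0.66 in the median log2 fold change of all genes, and the same gene was called. *Apol7a* fell by 1.86 (SE 0.24, adjusted p = 0.000321 by edgeR), from 6.15 to 9.58 CPM in tissue to 1.79 to 2.22 CPM in organoids. *Apol9a* (0.64, SE 0.30), *Apol6* (0.28, SE 0.51) and *Apol9b* (0.05, SE 0.32) did not pass, and *Apol10a* had 14 counts in tissue and 1 in organoids, for which no fold is given. Tissue and organoids overlapped in 4 of the 6 genes, all but *Apol7a* and *Apol10a*, while 42.5% of all genes tested were lower in organoids without overlap.
Marker lists differed between organoids and tissue as well. Summed CPM of 7 fibroblast genes were 9095 to 23226 in RNF138 fl/fl organoids and 40413 to 49670 in RNF138-/- organoids, against 941 to 1777 in the 12 tissue libraries, and B and plasma cell genes were at 0.299 to 1.67 summed CPM in organoids. *Epcam* was at 826 to 1623 CPM in organoids. The colonocyte list was at 1096 to 2152 summed CPM in RNF138 fl/fl organoids against 4723 to 24213 in CAC, and at 2046 to 2366 against 433 to 1000 in RNF138-/-. Smooth muscle genes were likewise lower in RNF138 fl/fl organoids than in CAC, at 265 to 1358 against 2505 to 8379. In RNF138-/- they were higher, at 1583 to 1779 against 113 to 242. The goblet cell, myeloid, T cell and endothelial lists were lower in organoids in both genotypes. The part of these differences in the *Apol* result was not tested.
The genotype difference in organoids minus that in CAC again contains the known contrast and carries no test. It was 5.26 (SE 1.19) for *Apol9a*, 4.60 (SE 1.17) for *Apol9b*, 4.53 (SE 1.05) for *Apol6*, 3.19 (SE 1.00) for *Apol7a* and 2.98 (SE 0.84) for *Apol10b*. Without CAC RNF138 fl/fl replicate 3 these were 3.44, 2.74, 2.78, 1.30 and 2.35, in that order. For *Apol10a* no usable value was had (SE 8.73). Organoids minus colitis, which does not contain it, was called for 0 of the 5 genes with a usable value (*Apol10a* had an SE of 5.94), beside 7.11% of all genes tested, and 0 had an unadjusted p under 0.05, with differences from -1.27 for *Apol9b* to 0.98 for *Apol10b*.

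Of the 7 other *Apol* genes, *Apol8* and *Apol7c* were the only ones above 6 CPM in any library, and they went opposite ways in organoids. *Apol8* was higher in every organoid library than in any tissue library. It was at 16.2 to 19.0 CPM in RNF138 fl/fl and 8.66 to 13.8 CPM in RNF138-/- organoids and at most 0.797 CPM in any tissue library. Its log2 fold change against CAC was 6.27 (SE 0.56) in RNF138 fl/fl and 5.09 (SE 0.60) in RNF138-/-. With 0 to 7 and 3 to 15 counts in the CAC libraries of each genotype, *Apol8* entered these fits only through organoids, where it is high. These values are therefore sizes with no test. *Apol7c* was close to 0 in organoids and, like the 6 genes, lower in RNF138-/- than in RNF138 fl/fl CAC, at 21.7 ± 3.86 and 28.7 ± 12.1 CPM in RNF138 fl/fl and RNF138-/- colitis, 12.7 ± 2.84 and 3.47 ± 2.19 CPM in CAC, and 0 and 2 counts in all in organoids. Its log2 fold change between genotypes in CAC was -1.93 (SE 0.48, adjusted p = 0.0586 by edgeR) and was not called. Unlike the 6 genes it did not peak in CAC RNF138 fl/fl replicate 3, which read 13.1 CPM against 15.4 and 9.72 in the other two. It fell by 3.09 in log2 units between colitis and CAC in RNF138-/- (SE 0.52, adjusted p = 0.00246 by edgeR). The stretch from 500 kb before to 500 kb after the cluster, genes between its members included, holds 34 other protein-coding genes in the annotation, of which 25 were tested, to see whether the region as a whole moved. In CAC against colitis among RNF138-/- libraries, 4 of these 25 were called lower, *Slc39a4*, *Cyhr1*, *Kifc2* and *Gpt*, and 2 higher, *Zfp7* and *Zfp647*, with a median of -0.35, shares that are below the 19.3% and 16.1% of all genes tested. *Gpt*, which encodes alanine aminotransferase, fell by 3.80 (SE 0.34, adjusted p = 0.000226 by edgeR). Between genotypes in colitis 0 of 25 were called, 14 with a positive and 11 with a negative log2 fold change, and 3 had an unadjusted p under 0.05. *Apol6* overlaps *Mb*, encoding myoglobin, on the opposite strand, and *Mb* had at most 22 counts in any library.

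**Figure D3:**
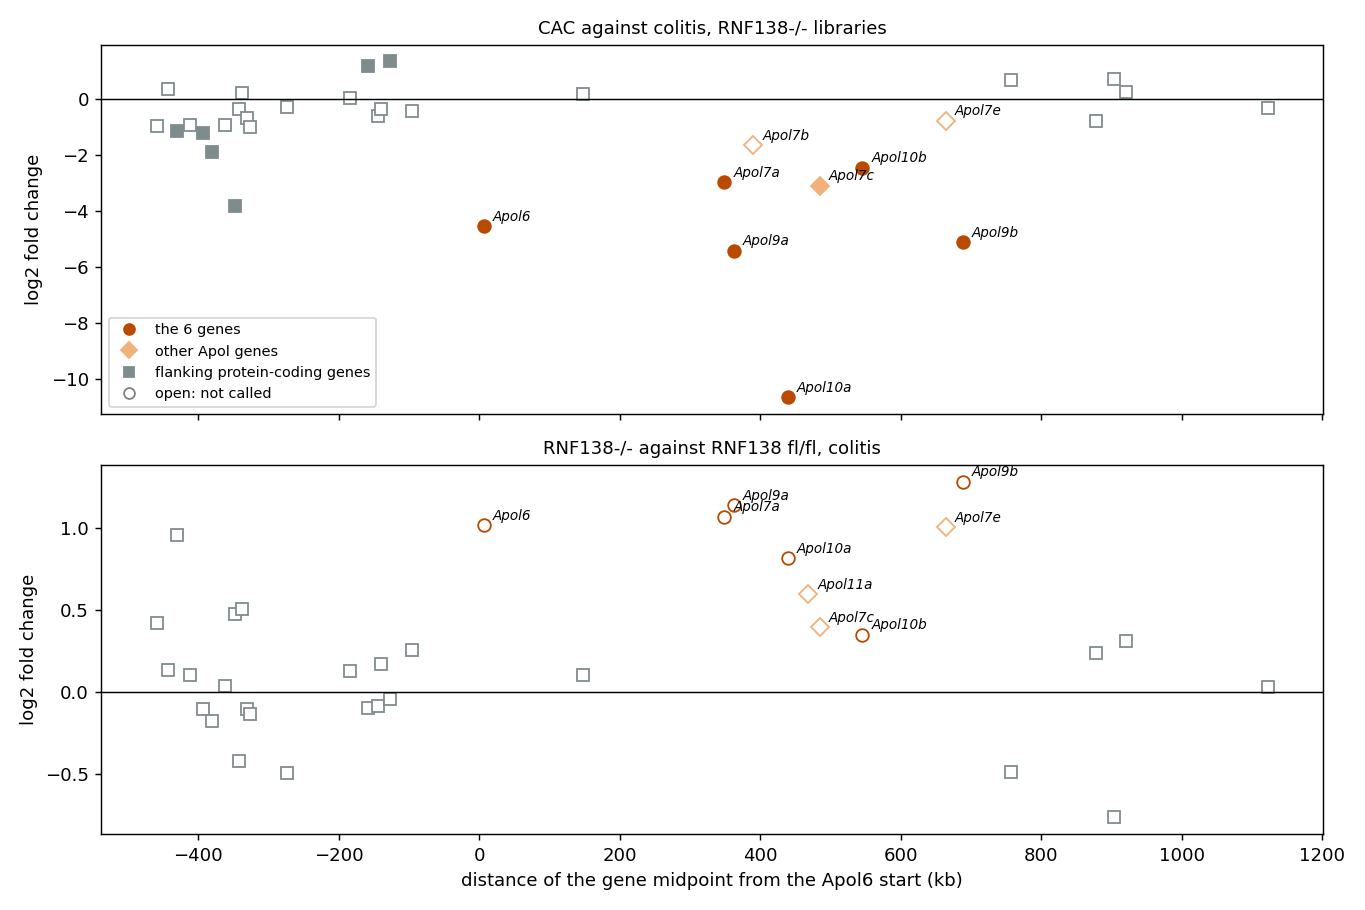
Fitted log2 fold change of the *Apol* genes and of protein-coding genes within 500 kb, by distance of the gene midpoint from the *Apol6* start in kb, for CAC against colitis in RNF138-/- (upper) and for RNF138-/- against RNF138 fl/fl in colitis (lower), with filled symbols for called genes. In the upper panel the 6 genes lie between -2.45 and -10.63 while the flanking genes have a median of -0.35. In the lower panel no symbol is filled and the 6 genes lie between 0.35 and 1.29.

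Genes of the interferon response were set beside the family. Of 32 type I interferon-stimulated genes, 31 had positive log2 fold changes between genotypes in colitis, with a median of 0.67 and 0 called, 14 having an unadjusted p under 0.05. Between genotypes in CAC all 32 were negative, with a median of -2.51, and 9 were called lower, beside 4.83% of all genes tested. Without CAC RNF138 fl/fl replicate 3, whose summed level of these genes was 7036 CPM against 2390 and 1379 in the other two, all 32 stayed negative, with a median of -1.67 and 15 called lower, beside 5.25% of all genes tested. The call count is unstable, with 1 called lower without RNF138 fl/fl replicate 1, 17 without replicate 2 and 0 without any one of the RNF138-/- libraries, where 0 to 109 of all genes were called, while the median stayed between -2.88 and -1.67. *Isg15*, a ubiquitin-like modifier, was at 6.65 ± 3.02 CPM in RNF138-/- and 84.7 ± 85.2 CPM in RNF138 fl/fl CAC (log2 fold change -3.74, SE 0.83, adjusted p = 0.0495 by edgeR), and at -2.46 without replicate 3 (SE 0.42, adjusted p = 0.0273). *Ifi27l2a* was at 4.22 ± 1.24 CPM against 53.5 ± 28.4 CPM (-3.72, SE 0.46, adjusted p = 0.0222 by edgeR), and at -3.17 without it (SE 0.27, adjusted p = 0.00773).
In CAC against colitis among RNF138-/- libraries 28 of the 32 were called lower and 0 higher, with a median of -2.37, beside 19.3% of all genes tested called lower. *Ifi27l2a* fell by 4.18 (SE 0.36, adjusted p = 0.000201 by edgeR) and *Isg15* fell by 4.07 (SE 0.44, adjusted p = 0.000446). Of 30 interferon-gamma-inducible genes, 8 were called lower and 1, *Gbp9*, higher in that comparison, where 4 were called lower without CAC RNF138-/- replicate 1 or 2 and 13 without replicate 3. Between genotypes in CAC 0 of the 30 were called, 11 having an unadjusted p under 0.05 (5 without CAC RNF138 fl/fl replicate 3). DESeq2 calls were not counted over the lists. In the pathway list of ligands, receptors and factors, 15 of 21 genes in the table had enough counts, and 1 was called lower in each of these comparisons, *Irf7*, which is also in the type I list and encodes the factor that amplifies type I interferon production. It fell by 3.96 between colitis and CAC in RNF138-/- (SE 0.46, adjusted p = 0.000588 by edgeR).
In organoids against CAC, 26 of the 32 type I genes were called lower in RNF138 fl/fl (24 without CAC replicate 3), and 16 lower and 5 higher in RNF138-/-, where *Ifit1*, an inhibitor of viral RNA translation, rose by 2.27 (SE 0.36, adjusted p = 0.000861 by edgeR). Of all genes tested 24.7% were called lower and 16.9% higher in the first, and 26.5% and 19.8% in the second. The interferon-gamma list had 25 genes called lower and 2 higher in RNF138 fl/fl, and 24 lower and 3 higher in RNF138-/-. *Apol9a* and *Apol9b*, interferon-induced themselves, did not pass in that RNF138-/- comparison.

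Across the 18 libraries the 6 genes had Pearson correlations of 0.72 to 0.99 over the 15 pairs after the difference between models was taken out. This is a description, because the genes were picked for the same CAC difference, which stays in these values, and the libraries share models, depth and cell makeup. Centred by group, which takes the genotype difference out, the correlations ran from 0.36 to 0.97 with a median of 0.67. When CAC RNF138 fl/fl replicate 3 was left out as well they ran from -0.40 for *Apol10a* and *Apol9b* to 0.94 for *Apol9a* and *Apol9b*, with a median of -0.036 over 17 libraries. The genes most like each member, among 12424 genes and centred by model, rest on the same CAC values and were of different kinds. *Apol10a* was closest to *Btnl1* (r = 0.99), a butyrophilin-like gene of gut epithelium, *Hsd3b2* and *Fabp2* (both r = 0.99), the latter a fatty acid carrier of absorptive cells. *Btnl1* was at 31.0 to 88.4 CPM in the 6 colitis libraries, at 10.6, 23.9 and 124 CPM in RNF138 fl/fl CAC and at 0.0404 to 0.316 CPM in RNF138-/- CAC, and had 0 counts in organoids. *Apol9a* and *Apol9b* were closest to each other (r = 0.99, with shared reads) and then to *Irf7* (both r = 0.97). *Irf7* was at 954, 434 and 337 CPM in RNF138-/- colitis replicates 1 to 3, the same order as *Apol9a* and *Apol9b* in those libraries. *Fabp2* had that order too, at 958, 619 and 491 CPM, the reverse of *Apol10a*, so a high r over all libraries does not fix the order within a group. *Apol6* was closest to *Sprr2a1* (r = 0.97), *Apol7a* to *Edn3* (r = 0.95) and *Apol10b* to *Nexn* (r = 0.94), a gene of muscle cells. Without CAC RNF138 fl/fl replicate 3 the closest gene was the same for *Apol10a*, *Apol9a*, *Apol9b* and *Apol10b*, while *Sprr2a1* (r = 0.91) and *Edn3* (r = 0.84) each came to place 6.

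**Figure D4:**
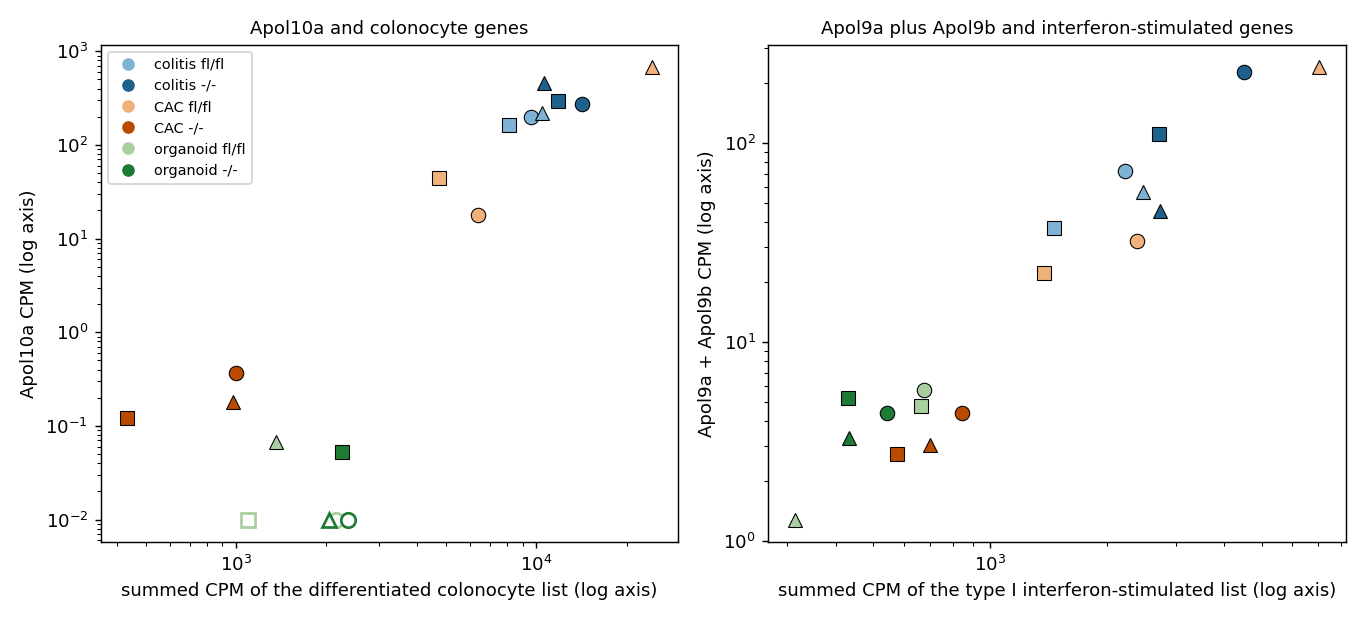
Left, *Apol10a* CPM against the summed CPM of 16 differentiated colonocyte genes. Right, summed *Apol9a* and *Apol9b* CPM against the summed CPM of 32 type I interferon-stimulated genes, 1 symbol per library (circle, square and triangle for replicates 1, 2 and 3) on log axes, with open symbols at the bottom for 0 counts. CAC RNF138 fl/fl replicate 3 lies at the upper right of both panels (24213 and 7036 summed CPM on the horizontal axes), and the RNF138-/- CAC libraries lie at the lower left of the tissue libraries (433 to 1000 and 573 to 844).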

How the data were processed

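All 18 RNA-seq libraries, 3 in each of 6 groups taken from the labels, were used. The authors deposited raw counts, whole numbers of reads for each gene. The submitters' processing notes name STAR 2.6.1d, HTSeq 0.11.2 and DESeq2 and the mm10 build, and the study's methods name Cufflinks and Gencode v.M8, so which tool made the counts, and whether strand was used, is not given in the sources used here. A second deposited table holds the authors' own log2 fold changes and p-values and was not used. Gene identifiers were matched without their version to a GENCODE annotation of GRCm38 (36700 genes, 99.8%), which gave coordinates and exon lengths. Symbols came from the count table.

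Counts were tested with edgeR 4.0.16 in R 4.3.3 (TMM, filterByExpr by group, glmQLFit and glmQLFTest), with Benjamini-Hochberg adjustment over all genes tested. Each of 7 comparisons was fitted on its own 6 libraries, and 3 differences of genotype effects in 1 fit of all 18, with 19390 genes tested. Genes that changed at least 2-fold with an adjusted p under 0.05 were called, a difference between effects at an adjusted p under 0.05. The genotype contrast in CAC picked the genes, so its values for them, and those of differences that contain it, are given without calls. Comparisons that have a group in common share its 3 libraries. CPM were scaled by TMM over the 18 libraries. For correlations, log2(CPM + 0.5) was centred by model over genes reaching 5 CPM. The procedure was tested on simulated data.

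The 6 genes and all gene lists were chosen with earlier results of these data known. The genes named were the 6 genes, *Rnf138*, every other *Apol* gene, the 2 called genes with the largest change in each direction of a list that averaged at least 5 CPM in the higher group, and the 3 genes most like each member. *Epcam*, *Ddx3y* and *Xist* were given as checks of cell and sex makeup, and *Mb* for its overlap. Flanking genes, called ones only, were named in full for 1 comparison.

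No pair of libraries within a group was a copy (chi-square per degree of freedom 7.44 to 143.5), and pairs between groups were not checked. Same-numbered libraries did not deviate together (correlations -0.18 to 0.48, in no comparison all above 0.1), so numbers were not treated as pairs. Alternatives were library totals without TMM, no filter on low counts, DESeq2 1.42.0, a replicate block, 1 fit of all libraries, summed copies and each library left out. Intervals and the level of 3 counts cover counting error only.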

Additional observations from a re-analysis of the deposited data

How the results depend on the processing

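Over 480 recomputed values of the 6 genes, leaving out the CAC genotype contrast that picked them and the differences that contain it, 453 kept direction and side of the threshold, 4 gained a call and 23 changed sign, of which 2 were also newly called, *Apol10a* and *Apol6* in CAC against colitis in RNF138 fl/fl without CAC replicate 3, and the cause was not tested. Between genotypes in colitis, where 15 of all genes and 0 of the 6 were called, the counts were 29 and 0 without TMM, 354 and 1 without the filter and 337 and 1 with DESeq2, the 1 being *Apol7a* each time, and 0 to 147 of all genes with 1 library left out (147 without RNF138-/- replicate 3). In CAC, where 954 of all genes were called, they were 1641 without the filter, 2654 with DESeq2, 2834 in 1 fit of all 18 libraries and 0 to 1136 with 1 library left out. The summed copies gave 0 called in CAC against colitis in RNF138 fl/fl (0 to 2). In organoids 2292 of all genes were called between genotypes, 1515 to 3130 with 1 library left out, and library totals in place of TMM turned 1215 higher and 1077 lower to 936 and 1654. In CAC against colitis in RNF138 fl/fl 1689 were called, 2833 without the filter, 2589 with DESeq2, 2636 in the fit of all libraries and 391 to 3271 with 1 left out, and 0 to 3 of the 6 genes. For differences between genotype effects the counts over all genes were 2733 for CAC minus colitis (1537 to 3448 with 1 library left out), 4527 for organoids minus CAC (3167 to 4723) and 1378 for organoids minus colitis (476 to 1920). Counts of lists with a library left out, pooled count ratios and correlations without CAC RNF138 fl/fl replicate 3, and centring by group, were chosen after seeing the data.

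Signs changed for small log2 fold changes that did not pass the test, and for CAC against colitis in RNF138 fl/fl. Between genotypes in organoids *Apol9a* became -0.0013 without TMM, and *Apol9b* became 0.0061 with DESeq2 and 0.019 in the fit of all libraries. In organoids against CAC in RNF138-/-, *Apol6*, *Apol9a* and *Apol9b* became -0.38, -0.016 and -0.60 without TMM. With 1 library left out, *Apol7a* ranged from -0.024 to 0.73, *Apol9a* from -0.28 to 0.82 and *Apol9b* from -0.39 to 0.32 between genotypes in organoids, and *Apol9b* from -0.12 to 0.29 in organoids against CAC in RNF138-/-. In CAC against colitis in RNF138 fl/fl the ranges were -2.63 to 0.89 for *Apol10a*, -1.07 to 1.14 for *Apol6*, -0.95 to 1.43 for *Apol7a*, -0.99 to 1.32 for *Apol9a* and -1.06 to 1.30 for *Apol9b*, the lowest always without CAC replicate 3. For organoids minus colitis *Apol10a* ranged from -2.84 to 1.14.

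Replicate numbers did not pair the libraries. With a replicate block the calls between genotypes in colitis were 89 of all genes and 1 of the 6, *Apol7a*, and those in CAC 1079 of all genes. Under the block *Apol9b* was 0.032 between genotypes in organoids, and in CAC against colitis in RNF138 fl/fl *Apol10a* became -1.36, *Apol6* -0.093 and *Apol9b* -0.0088.

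Depth limited *Apol10a* in organoids and RNF138-/- CAC and *Apol10b* in organoids. *Apol9a* and *Apol9b* share sequence over the length of a read, so their single values carry an error that no replicate shows.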

Other observations

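The remaining *Apol* genes were low. *Apol7e* was at 0.893 to 5.58 CPM in tissue and 0 to 0.239 CPM in organoids. *Apol7b*, *Apol11a* and *Apol11b* reached at most 1.51, 1.99 and 2.74 CPM, each in RNF138 fl/fl CAC. With windows of 150 bases, as for the 6 genes, *Apol7b* shared 43.8% of its exonic windows with *Apol7e*, so reads of that pair cannot all be assigned with confidence. *Apol11a* and *Apol11b* had 0 counts in all 6 organoid libraries. The gene listed as *Apol7d* lies on chromosome 1 on the strand opposite *Fn1*, which encodes fibronectin, and was at 0.346 to 1.36 CPM in RNF138 fl/fl organoids. Promoter windows of *Apol11a* and *Apol11b* were identical to each other over 250 bases and 86.8% identical to that of *Apol10a*.
The ratio of *Apol9a* to *Apol9b* counts was 1.03 to 1.69 over the 12 tissue libraries, with a median of 1.47, while their summed level differed far more between those libraries. The ratio of *Apol10a* to *Apol10b* counts was 37.6 to 78.6 in the 6 colitis libraries, 10.8 to 125 in RNF138 fl/fl CAC and 0.111 to 0.875 in RNF138-/- CAC.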
